A study of Mus musculus with 4 samples.

Results

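The distal Myc sites shared with Max are the Bio-Myc peaks that touched a Max peak, with 1 bp or more in common, and stayed clear of the region within 1 kb of every annotated transcription start site (TSS) of any gene type. They were chosen by the peak calls themselves, and 493 of the 3962 Bio-Myc peaks on the autosomes and chromosome X met the rule. Overlap, position and score were therefore used by the choice, and are described here with no test, while the DNA sequence under the peaks was not used. Away from promoters there were 978 Bio-Myc peaks, and 493 of them (50.4%) were shared with Max, whereas 74.9% of all Bio-Myc peaks were. Promoter sites made up most of the shared peaks, and the 493 distal sites were 16.6% of the 2967 Bio-Myc peaks that overlapped Max.

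The data are chromatin immunoprecipitation with sequencing (ChIP-Seq) of embryonic stem cells (ESCs) of the mouse line E14. In the Bio-Myc ChIP, streptavidin beads purified the chromatin of 1 stable clone that carried, in BirA-ESCs, Myc with an N-terminal Biotag driven by the ubiquitous EF1α promoter, so the tagged Myc was added to the endogenous protein. The Max ChIP used an anti-Max antibody on parental wild type cells, and the control libraries were a mock streptavidin ChIP for Bio-Myc and an IgG ChIP for Max. The sources differ on the mock cells, which the sample description calls parental wild type and the methods BirA-ES cells with no tagged protein, so it is not known whether they carried the biotin ligase. Each ChIP is 1 library with no replicate, and the peak lists hold no read counts, so the depth is unknown and no value below has a spread between cultures.

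Myc does not bind DNA alone. It forms a dimer with Max through a basic helix-loop-helix leucine zipper, and the dimer recognises the E-Box CACGTG, a palindrome that reads the same on both strands. Max also pairs with itself and with Mxd proteins, Mnt and Mga, so a Max peak without Myc is not unusual. In ESCs Myc is known for supporting self-renewal and for binding near the TSS of active genes, most often in CpG islands, which are stretches rich in G, C and the dinucleotide CpG.

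The following sequences show the E-Boxes of 4 sites from among the highest Bio-Myc scores. They are plus-strand mm9 sequence, each with 20 bases on either side of the E-Box nearest the peak centre, and capitals mark every CACGTG.
Foxk1, chr5:142843605-142843650: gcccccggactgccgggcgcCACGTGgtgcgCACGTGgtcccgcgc
Slc38a2, chr15:96540345-96540390: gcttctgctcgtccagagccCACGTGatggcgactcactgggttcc
Anp32b, chr4:46465605-46465650: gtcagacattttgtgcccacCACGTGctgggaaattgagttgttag
Rps6ka1, chr4:133466676-133466721: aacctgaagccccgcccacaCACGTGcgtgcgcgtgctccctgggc
The peak nearest to Foxk1, which encodes a forkhead transcription factor, had the highest Bio-Myc score of all members. Its pair of E-Boxes lay close together, with the nearer one 248 bp from the centre. That one crossed the edge of the central 500 bp and was not counted there. The E-Boxes of the sites near Slc38a2, an amino acid transporter, and Rps6ka1, a ribosomal S6 kinase, lay 22 bp and 12 bp from the centre.

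Other sites held several E-Boxes spread over the peak. All of them are given here for the site with the highest score among those with 4 E-Boxes, near Ccnd1, and for the sites near Dync1h1, Mga and Ccne1, with 15 bases on either side and the same use of capitals.
Ccnd1, chr7:152128484-152128519: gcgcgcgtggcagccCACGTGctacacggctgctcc
Ccnd1, chr7:152128895-152128930: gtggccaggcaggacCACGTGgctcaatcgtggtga
Ccnd1, chr7:152129174-152129209: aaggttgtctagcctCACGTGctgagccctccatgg
Ccnd1, chr7:152129363-152129398: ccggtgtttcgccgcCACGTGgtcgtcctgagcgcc
Dync1h1, chr12:111829556-111829591: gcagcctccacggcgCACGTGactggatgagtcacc
Dync1h1, chr12:111829935-111829970: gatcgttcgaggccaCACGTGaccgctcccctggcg
Dync1h1, chr12:111829957-111829992: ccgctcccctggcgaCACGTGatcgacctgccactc
Dync1h1, chr12:111830275-111830310: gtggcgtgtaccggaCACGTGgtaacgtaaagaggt
Mga, chr2:119698494-119698529: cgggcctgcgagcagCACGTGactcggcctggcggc
Mga, chr2:119698761-119698796: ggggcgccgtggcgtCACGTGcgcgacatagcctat
Mga, chr2:119699075-119699110: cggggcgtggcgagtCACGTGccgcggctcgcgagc
Ccne1, chr7:38870204-38870239: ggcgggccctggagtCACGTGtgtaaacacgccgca
Ccne1, chr7:38870223-38870258: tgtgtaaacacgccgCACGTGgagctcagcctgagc
Ccne1, chr7:38870499-38870534: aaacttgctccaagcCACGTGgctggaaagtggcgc
The 4 E-Boxes near Ccnd1 lay at -374, 37, 316 and 505 bp from the peak centre. At the Ccne1 site, 2 of the 3 E-Boxes stood close together, at -194 and -175 bp, and the other at 101 bp.

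The central 300 bases of 3 sites show how much the members differed in sequence, again with E-Boxes in capitals.
Slc38a2, chr15:96540196-96540495: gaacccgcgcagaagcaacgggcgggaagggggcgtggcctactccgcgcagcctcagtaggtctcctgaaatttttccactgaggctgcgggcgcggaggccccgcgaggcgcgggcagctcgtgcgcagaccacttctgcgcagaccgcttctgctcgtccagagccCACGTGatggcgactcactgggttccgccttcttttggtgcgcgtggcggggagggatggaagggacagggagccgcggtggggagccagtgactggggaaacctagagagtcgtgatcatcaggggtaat
Rnf4, chr5:34679004-34679303: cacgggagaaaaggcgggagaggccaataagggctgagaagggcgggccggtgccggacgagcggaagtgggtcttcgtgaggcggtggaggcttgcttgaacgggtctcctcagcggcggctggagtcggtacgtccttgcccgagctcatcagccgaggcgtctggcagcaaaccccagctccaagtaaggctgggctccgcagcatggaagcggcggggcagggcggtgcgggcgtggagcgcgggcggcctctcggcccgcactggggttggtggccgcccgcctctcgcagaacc
Eef1a1, chr9:78351392-78351691: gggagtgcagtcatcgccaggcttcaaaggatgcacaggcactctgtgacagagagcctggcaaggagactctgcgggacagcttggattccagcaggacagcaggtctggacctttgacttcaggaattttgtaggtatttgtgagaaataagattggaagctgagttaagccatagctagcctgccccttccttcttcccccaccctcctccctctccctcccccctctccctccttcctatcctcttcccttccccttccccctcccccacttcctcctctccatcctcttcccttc
The stretch near Slc38a2 held 28 CpG in 300 bases and an E-Box. The stretch near Rnf4, a ubiquitin ligase that reads SUMO chains, held 31 CpG and no CACGTG, and none was found in the whole peak. The stretch near Eef1a1, the gene of a translation elongation factor, had a GC content of 56% but held only 2 CpG.

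The scores of the members covered a wide range in both ChIPs. A score is 10 times the negative log10 of the p-value that MACS gave, so the lowest score of 80 is the authors' limit of 1e-08. The Bio-Myc scores of the members ran from 80.36 to 2356.87 with a median of 119, and the scores of the Max peaks they overlapped ran from 80.07 to 3100 with a median of 180. The 2 scores were only loosely ordered together, with a Spearman rho of 0.23 over the 493 sites. All of these points share the same 2 libraries, and scores of different libraries depend on their depth.

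**Figure D1:**
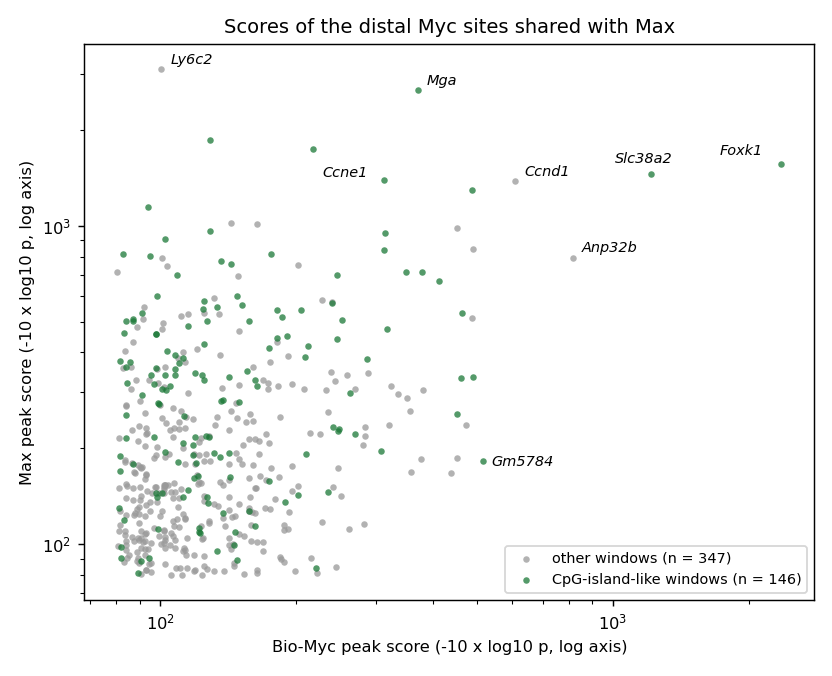
Each point is 1 of the 493 distal sites, with its Bio-Myc score on the x axis and the score of the Max peak it overlapped most on the y axis, both as 10 times the negative log10 of the p-value, on log axes. Green points are the 146 sites with a CpG-island-like centre and grey points the other 347, and green points are more common among the higher Max scores.

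The site near Foxk1 (chr5:142842757-142844002) led the Bio-Myc list of members with 2356.87, between genes and 33.4 kb upstream of the Foxk1 TSS, and its Max score was 1557.39. The site near Slc38a2 (chr15:96539682-96541010) followed with 1214.1 for Bio-Myc and 1453.2 for Max, 9553 bp upstream of the TSS. In the intron of Anp32b, a gene of an acidic nuclear phosphoprotein, the peak at chr4:46465329-46466059 scored 817.55 for Bio-Myc and 792.65 for Max. Those 3 sites stood high in both ChIPs. Upstream of Ccnd1, the gene of cyclin D1, the peak at chr7:152128150-152129601 scored 608.23 for Bio-Myc and 1379.96 for Max, and it ended 2376 bp from the TSS. A second member lay between it and the gene, 1248 bp from the TSS, with a Bio-Myc score of 262.43, a Max score of 298.51 and no E-Box.

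Further sites among the 10 highest Bio-Myc scores, from 474.18 to 515.72, were nearest to Gm5784, Rps6ka1 (2 sites), Ptma and Gm10130. The Rps6ka1 pair differed in Max score and in sequence. The upstream site (chr4:133465933-133467441) had a Bio-Myc score of 488.15, a Max score of 1297.04 and 2 E-Boxes. The downstream site (chr4:133369019-133371174) had a Bio-Myc score of 491.55, a Max score of 334.74, no E-Box and a GC content of 77.4%, the highest of any member, and it lay 1161 bp from the TSS of the non-coding Gm12974. The sites near Gm5784 and Gm10130 had copies elsewhere in mm9, at 80% identity or more over at least 80% of the central window.

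By Max score the order was different. The highest Max score, 3100, was at a site 24.5 kb from the TSS of Ly6c2 (chr15:74915837-74917613), a surface antigen of blood cells, where the Bio-Myc score was only 100.56. That value is the top of the scale, reached by 10 of the 11544 Max peaks, and this site has 4 other copies in mm9, a GC content of 40.2% and no E-Box. The site near Mga (chr2:119698098-119699593) scored 2667.83 for Max and 371.17 for Bio-Myc, 23.4 kb upstream of the TSS. Mga encodes a dimerization partner of Max, and its site held 3 E-Boxes and a CpG-island-like centre. Exons of Cilp2 and Chst5 on chromosome 8 held the next sites, with Max scores of 1863.12 and 1738.58 and Bio-Myc scores of 128.78 and 217.92. The site 13.2 kb downstream of the TSS of Ccne1 (chr7:38869670-38871162), the gene of cyclin E1, scored 1387.33 for Max and 312.33 for Bio-Myc. The last of the 10 was in an exon of Gal3st3, a sulfotransferase gene, with a Max score of 1145.73 and a Bio-Myc score of 93.95.

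Max peaks covered the larger part of the Bio-Myc peak at most members, with a median of 84.4% and a lower quartile of 69.7%. The Bio-Myc peaks were 306 to 3129 bp wide with a median of 941 bp, the median overlap with Max was 736 bp, and at 466 of 493 sites (94.5%) at least 50% of the Bio-Myc peak was covered. The centres of both peaks were 100 bp apart in the median. At 8 members the Bio-Myc peak overlapped 2 Max peaks, and at 3 members the Max peak itself reached within 1 kb of a TSS. Just inside the overlap rule, 33 bp were shared in the intron of Golm1, 176 bp near Gm17549 and 268 bp near Gm16099. Just outside it, the nearest Max peak was 20 bp away near Tha1, 173 bp near Arhgap5 and 179 bp near Tnpo2.

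Members were divided between intergenic and genic sequence. The peak centre lay between genes in 252 sites (51.1%, 95% Wilson interval 46.7 to 55.5%), in an intron in 171 (34.7%) and in an exon in 70 (14.2%), of which 16 were in an annotated UTR. Of the 485 distal Bio-Myc sites without Max, 219 (45.2%) lay between genes, 247 (50.9%) in an intron and 19 (3.92%) in an exon. The distance to the nearest TSS had a median of 8579 bp and ran from 1013 bp, beside Mir804, to 226072 bp. It was 1 to 2 kb at 49 members, 2 to 5 kb at 111, 5 to 10 kb at 115, 10 to 50 kb at 185 and over 50 kb at 33. After the site near Mir804, the members closest to a TSS were at 1034 bp (Metap2) and 1037 bp (Foxn3), and the closest peaks left out were at 982 bp (Gm14488), 976 bp (Kcnu1) and 966 bp (Odz4). The intervals given here and below cover counting error only, and the regions counted are not replicates.

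Chromosome 8 stood apart in the share of distal Bio-Myc peaks that were members. There, 43 of 51 (84.3%, interval 72.0 to 91.8%) overlapped Max, against 450 of 927 (48.5%, interval 45.3 to 51.8%) on the other chromosomes. Max peaks in general were dense there, with 616 of the 3152 distal Max peaks without Bio-Myc, and the part of that density in the overlap was not tested. Chromosome 11 held the most members, 47, and chromosome X held 1.

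Of the motifs counted, the canonical E-Box was present in the most members. CACGTG was present in the central 500 bp of 243 of the 493 members (49.3%, interval 44.9 to 53.7%), while 37% of all Bio-Myc peaks held it there. In 500-bp windows placed 10 kb to the left and right, free of peaks and promoters, 75 of 836 (8.97%, interval 7.22 to 11.1%) did. The difference of 40.3 percentage points had an odds ratio of 9.86 (Fisher's exact test, two-sided, p = 7.46e-61). The p-values of the 6 main comparisons were adjusted over those 6, and those of alternative settings and CpG classes were not adjusted. Around the TSSs of coding genes, 10.02% of 69930 windows of 500 bp held CACGTG.

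Members held an E-Box more often than distal Bio-Myc sites without Max, of which 165 of 485 did (34.0%, interval 29.9 to 38.3%). The difference was 15.3 percentage points, with an odds ratio of 1.89 and p = 1.83e-06 by Fisher's exact test. Members also had higher Bio-Myc scores than these sites, with medians of 119 and 103, and among sites with a score of at least 100 the difference was 13.02 points. The peaks without Max were not all far from it: 25 of the 485 had a Max peak within 1 kb, and the median gap was 20.8 kb.

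A separate comparison took Max peaks with and without Bio-Myc, in windows centred on the Max peaks. Of the 495 Max peaks at the distal shared sites, 249 (50.3%, interval 45.9 to 54.7%) had an E-Box in the central 500 bp, and of the 3152 distal Max peaks without Bio-Myc, 1070 did (33.9%, interval 32.3 to 35.6%). The difference of 16.4 points had an odds ratio of 1.97 and p = 8.5e-12 (Fisher's exact test). Among Max peaks with a score of at least 150 in both groups it was 15.5 points.

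Compared with the 2474 promoter sites shared with Max, of which 943 (38.1%, interval 36.2 to 40.05%) held an E-Box, the members had it more often by 11.2 points (odds ratio 1.58, p = 4.48e-06, Fisher's exact test). Within CpG classes the difference kept its direction and missed the threshold. Among windows that were not CpG-island-like it was 52.4% of 347 members against 45.3% of 300 promoter sites (p = 0.0827, Fisher's exact test, not adjusted). Among CpG-island-like windows it was 41.8% of 146 against 37.1% of 2174 (p = 0.289, Fisher's exact test, not adjusted). When CACGCG, an E-Box variant, was counted with CACGTG, the direction turned, with 62.9% of members and 68.0% of promoter sites (p = 0.0275, Fisher's exact test, not adjusted).

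**Figure D2:**
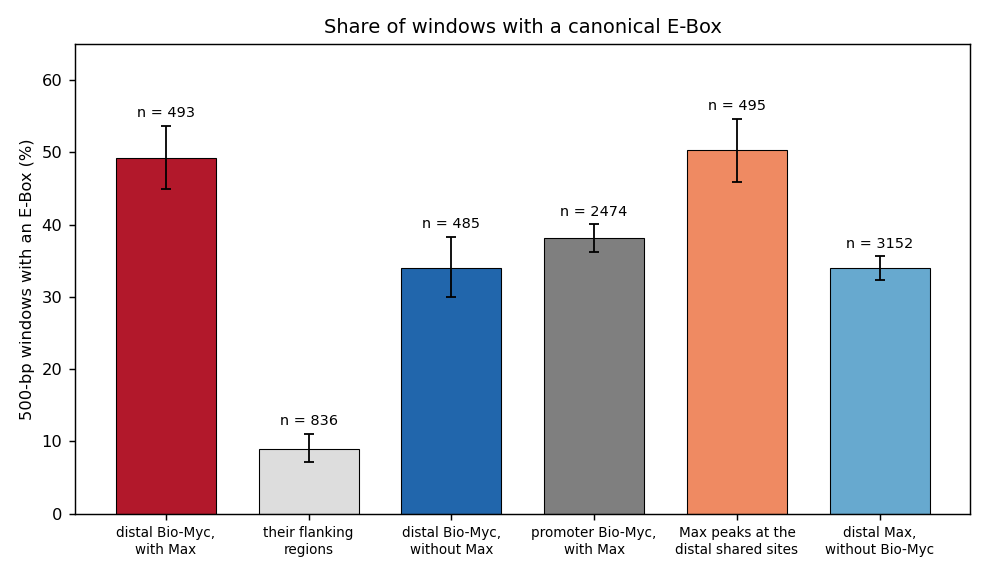
Bars give the percentage of 500-bp windows with CACGTG in 6 groups of regions, with 95% Wilson intervals, which cover counting error only, and the number of windows above each bar. The distal sites with Max stand at 49.3% and their Max peaks at 50.3%, above flanking regions at 8.97%, distal Bio-Myc sites without Max at 34.0%, promoter sites with Max at 38.1% and distal Max peaks without Bio-Myc at 33.9%.

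E-Boxes were concentrated at the centre of the shared peaks. In the 100 bp before and after the Bio-Myc peak centre, 69 and 83 of the 493 members had an E-Box, and at 400 to 500 bp from it 14 and 15 did. The 83 members were 16.8%, while the higher of the same 2 values was 10.3% in the distal sites without Max and 10.7% in the promoter sites. Over the whole peak, 292 members (59.2%) held at least 1 E-Box. This share was 42.9% in distal sites without Max and 53.9% in promoter sites with Max. Against promoter sites the difference was 5.35 points (p = 0.0294, Fisher's exact test, not adjusted). Of the 292 members, 277 (94.9%) held 1 inside the overlap with Max. That overlap was part of the rule and covered 84.4% of the Bio-Myc peak in the median. At most sites the larger part of the peak thus lies inside it, and no expected share was computed. In the median, the nearest E-Box lay 97 bp from the middle of its Bio-Myc peak and 69.5 bp from the middle of the overlap.

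**Figure D3:**
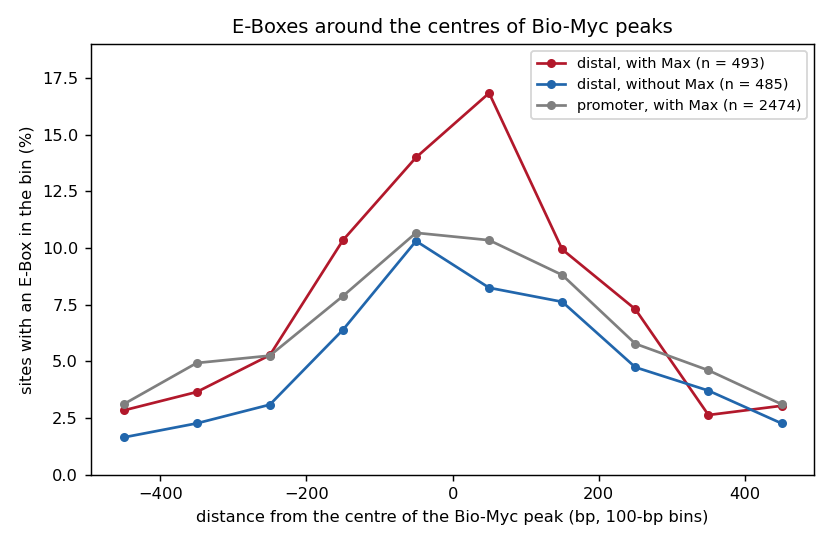
Points give the percentage of sites with CACGTG in each 100-bp bin (y axis) by distance from the Bio-Myc peak centre in bp (x axis), for distal sites with Max, distal sites without Max and promoter sites with Max. All 3 lines are highest near the centre, and the line of the distal sites with Max reaches 16.8%.

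Many members held several E-Boxes. Of the 493 members, 201 had none in the whole peak, 191 had 1, 83 had 2, 16 had 3 and 2 had 4. In the central 500 bp, 63 members (12.8%, interval 10.1 to 16.0%) had at least 2. The share was 3.71% (interval 2.36 to 5.79%) in distal sites without Max and 6.95% (interval 6.02 to 8.02%) in promoter sites with Max. In windows at Max peak centres it was 11.1% (interval 8.64 to 14.2%) at members and 3.36% (interval 2.79 to 4.05%) in distal Max peaks without Bio-Myc. These shares were noticed in the data and were not tested. The 2 members with 4 E-Boxes were the sites printed above near Ccnd1 and Dync1h1, the gene of the dynein heavy chain. Among the 16 with 3, the highest Bio-Myc scores were near Rpl30-ps6, Mga and Gsta4, the gene of a glutathione transferase.

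The bases next to the E-Box were tallied as well. Of the 310 E-Boxes in the central windows of members, 82 (26.5%) read CCACGTGG and 77 (24.8%) read CCACGTGC on 1 of the strands. In the 85 E-Boxes of flanking regions these shares were both 9.41%, and the most common form there was ACACGTGC, with 27.1% against 7.42% in members. In distal sites without Max the 2 forms were 19.7% and 18.0% of 183 E-Boxes, and in promoter sites with Max 13.8% and 21.2% of 1141. E-Boxes of 1 site are not independent, and these shares are given without a test.

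The variants of the E-Box and the sites of other factors were counted the same way, as exact matches on both strands of the central 500 bp. Of 31 motifs, 15 (48.4%) were present in more members than flanking regions at an adjusted p below the threshold of 0.05, and 1 in fewer (Fisher's exact test, two-sided, with Benjamini-Hochberg adjustment over the 31, which is the exact adjusted p of the following sentences). Against distal Bio-Myc sites without Max, 4 (12.9%) were present more often and 3 less often. Those 4 were CACGTG, its variant CACGCG, the palindrome TGCGCA and the Sp1 site GGGCGGGG, and all contain CpG. A match is a stretch of letters and does not show that the factor was bound.

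CACGCG was present in 24.5% of members, 2.03% of flanking regions and 6.60% of distal sites without Max (exact adjusted p = 1.6e-37 and 1.25e-13). Its share was 44.9% in promoter sites with Max, 18.5% in distal Max peaks without Bio-Myc and 16.6% in windows at coding TSSs, with no test. Within members it followed CpG content, with 54.1% of CpG-island-like windows and 12.1% of the others. In windows that were not CpG-island-like, 4.91% of distal sites without Max and 9.39% of distal Max peaks without Bio-Myc held it. Of the 250 members with no CACGTG in the central window, 67 (26.8%, interval 21.7 to 32.6%) had CACGCG. Among such windows the share was 6.56% of 320 distal sites without Max and 21.3% of 2082 distal Max peaks without Bio-Myc. It was 48.3% of 1531 promoter sites with Max, and these shares were not tested.

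The variant CATGTG, which has no CpG, went the other way. It was present in 44.2% of members and 55.3% of distal sites without Max (exact adjusted p = 0.00429), and in 38.8% of flanking regions (exact adjusted p = 0.0922). The variants CATGCG and CACGAG were each in 15.8% of members, above flanking regions with 7.78% and 6.58% (exact adjusted p = 3.1e-05 and 6.68e-07), and their shares in distal sites without Max were 10.9% and 14.8% (exact adjusted p = 0.0946 and 0.773). The E-protein site CAGCTG, bound by other helix-loop-helix factors, was in 28.0% of members and 22.6% of flanking regions (exact adjusted p = 0.0511).

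To set the E-Box beside other CpG palindromes with the same base composition, 7 of them were counted. Their share in members was 1.21 to 3.39 times that in flanking regions, while it was 5.49 times for CACGTG. The palindrome TGCGCA was the only one of the 7 above distal sites without Max at the threshold, with 13.8% against 5.36% (exact adjusted p = 7.08e-05). The Sp1 site, typical of CpG-rich promoters, was in 17.2% of members, 8.45% of distal sites without Max (exact adjusted p = 0.000413) and 34.5% of promoter sites with Max. The CTCF core AGGGGGCG was in 6.69% of members and 0.837% of flanking regions (exact adjusted p = 1.83e-08), and in 3.30% of distal sites without Max (exact adjusted p = 0.0633). Motifs outside the 7 palindromes reached higher ratios to flanking regions than CACGTG. The ratio was 12.1 for CACGCG, 8.48 for the Sp1 site and 7.99 for the CTCF core. It was 11.3 for the E2F site TTCCCGCC, 7.63 for the Yy1 site AAGATGGCG and 7.35 for the Ets site CCGGAAGT. Those last sites were rare, with 4.06%, 1.83% and 2.64% of members and 0.359%, 0.239% and 0.359% of flanking regions.

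Sites of stem cell factors gave smaller numbers. The Klf site GGGTGTG was in 17.8% of members against 11.4% of flanking regions (exact adjusted p = 0.00326) and 18.6% of distal sites without Max (exact adjusted p = 0.804). The octamer ATGCAAAT of Oct factors was in 2.43% of members and 2.99% of flanking regions (exact adjusted p = 0.673), the Sox site ACAATGG in 6.90% and 6.58% (exact adjusted p = 0.87), and the Esrrb site AAGGTCA in 12.8% and 9.45% (exact adjusted p = 0.102). The Gata site AGATAAG was the 1 motif found less often than in flanking regions, with 2.64% against 6.10% (exact adjusted p = 0.0102), and it was also less common than in distal sites without Max, with 6.39% (exact adjusted p = 0.0267). The Nfy site CCAATCA, with 7.71% of members and 12.8% of distal sites without Max (exact adjusted p = 0.0488), was the last of the 3 that were less common. In distal Max peaks without Bio-Myc, CATGTG was in 33.1%, the Gata site in 3.43% and the Nfy site in 5.58%, which was not tested.

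CpG content set the members apart from both neighbouring groups. A window was called CpG-island-like when its GC content was at least 50% and its observed to expected CpG ratio at least 0.6. This was so for 146 of 493 members (29.6%, interval 25.8 to 33.8%), 17 of 485 distal sites without Max (3.51%, interval 2.20 to 5.54%) and 2174 of 2474 promoter sites with Max (87.9%, interval 86.5 to 89.1%). Members were above the distal sites without Max by 26.1 points (odds ratio 11.6, p = 2.35e-30) and below the promoter sites by 58.3 points (difference of -58.3, p = 5.99e-150), both by Fisher's exact test. In flanking regions of members 5 of 836 windows met the rule. The medians of GC content and CpG ratio were 55.4% and 0.42 in members, 49.8% and 0.27 in distal sites without Max, and 64.4% and 0.84 in promoter sites. Distal Max peaks without Bio-Myc were CpG-island-like in 25.7% (interval 24.2 to 27.3%), beside 29.3% (interval 25.5 to 33.4%) of the Max peaks at members, and this pair was not tested.

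**Figure D4:**
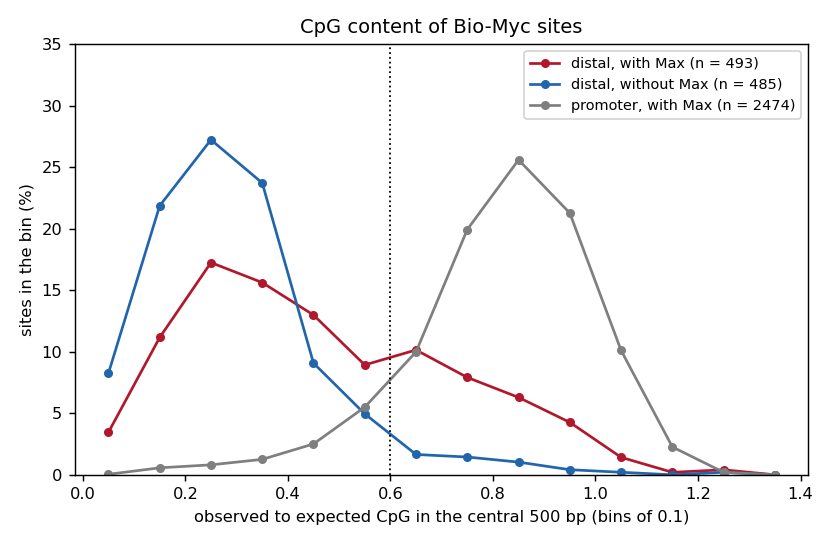
Lines give the percentage of sites (y axis) by the observed to expected CpG ratio of the central 500 bp in bins of 0.1 (x axis), for distal sites with Max, distal sites without Max and promoter sites with Max, with the limit of 0.6 dotted. The distal sites with Max spread across the range between the distal sites without Max, with a median of 0.27, and the promoter sites, with a median of 0.84.

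Neither feature rose or fell steadily with the distance to the nearest TSS. An E-Box was present in 46.9% of members at 1 to 2 kb (interval 33.7 to 60.6%), 49.5% at 2 to 5 kb, 46.1% at 5 to 10 kb, 51.9% at 10 to 50 kb and 48.5% beyond 50 kb (interval 32.5 to 64.8%). The CpG-island-like share was 28.6%, 33.3%, 30.4%, 27.6% and 27.3% in the same order. The intervals of all 5 distances overlap for both features. Members in exons were CpG-island-like in 44 of 70 cases (62.9%, interval 51.1 to 73.2%), members between genes in 28.6% of 252 and members in introns in 17.5% of 171, whereas the E-Box share was 42.9%, 48.4% and 53.2%.

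**Figure D5:**
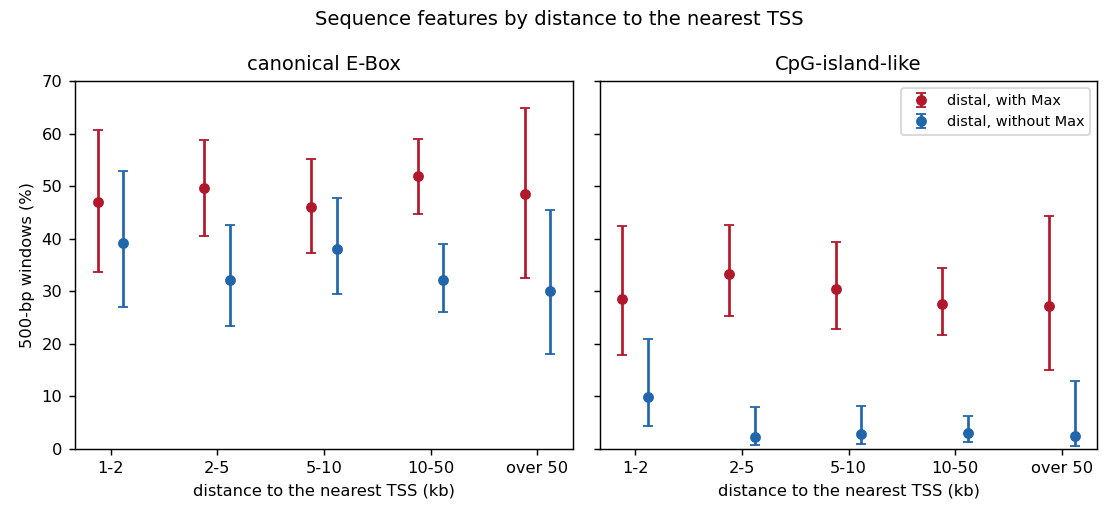
Points give the percentage of 500-bp windows with CACGTG (left) and of CpG-island-like windows (right) by distance to the nearest TSS in kb, for distal sites with Max and distal sites without Max, with 95% Wilson intervals. The distal sites with Max stay between 46.1% and 51.9% for the E-Box and between 27.3% and 33.3% for CpG.

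CpG content was also set beside the scores, as a description with no test. The CpG-island-like share was 12.2% of the 123 members with the lowest Max scores, 16.3% and 30.1% of the next groups of 123 and 59.7% of the 124 with the highest. CpG-island-like members had a median Max score of 324 and the others of 153, while their median Bio-Myc scores were 126 and 113. The E-Box share over the same 4 groups was 43.1%, 46.3%, 53.7% and 54.0%. Over groups of rising Bio-Myc score it was 43.1%, 53.7%, 43.9% and 56.5%, with no even rise.

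The coding gene nearest to each member was listed by the distance from the peak to its TSS, which does not show that the site acts on it. The 493 members had 464 such genes, 2.08% of the 22350 coding genes. Of these 464, 114 (24.6%) also had a Bio-Myc peak within 1 kb of a TSS, and 268 (57.8%) had a Max peak there. Over all coding genes the Bio-Myc share was 14.7% and the Max share 34.8%. The genes nearest to distal Bio-Myc sites without Max had shares of 26.4% and 53.3%.

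Most members stood alone. Neighbours were grouped by a fixed limit on the gap between them, which fell between the largest gap inside a group, 11752 bp, and the smallest gap left ungrouped, 12811 bp. By this limit, 463 members were single, 24 formed 12 pairs and 6 formed 2 groups of 3. The first group covered 20733 bp upstream of Ptma (chr1:88398884-88419616), which encodes prothymosin alpha. Its 3 sites scored 490.36, 112.08 and 89.94 for Bio-Myc and 843.66, 402.5 and 130.94 for Max, and both scores were lowest in the site nearest to the TSS, 3695 bp away. The second group lay in an intron of Tmem51 (chr4:141622575-141628142), a membrane protein gene, with Bio-Myc scores of 88.87, 160.0 and 93.65 and 3, 2 and 1 E-Boxes. Cbx7, which encodes a subunit of Polycomb complex PRC1, and Eef1a1 were also nearest to 3 members each. At Cbx7 all 3 lay in introns with scores from 84.12 to 118.88, and at Eef1a1 the 3 lay upstream with scores of 438.78, 181.14 and 90.8.

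Of the 239 genes in 8 lists of ESC biology, 22 (9.21%) were nearest to a member, beside 2.08% of all coding genes. The lists were drawn up with earlier results of these data known, so the counts are a description. Of 42 pluripotency genes 4 were nearest to a member. In an intron of Dnmt3a, a DNA methyltransferase gene, the site at chr12:3870720-3872234 scored 350.85 for Bio-Myc and 286.78 for Max and held 1 E-Box. Esrrb, an orphan nuclear receptor of the pluripotency network, had 2 intronic sites with Bio-Myc scores of 157.7 and 89.57. A site 5709 bp upstream of Tcf7l1, a repressor of Wnt targets, scored 127.02, and one 57.5 kb from Zfp281 scored 83.5.

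Of 36 genes of LIF, Wnt, Nodal, BMP and FGF signalling 5 were nearest to a member. The highest of them, 9548 bp upstream of Ctnnb1, the gene of β-catenin, scored 240.95 for Bio-Myc and 150.8 for Max. Sites near Jak1, the kinase of the LIF receptor, and in introns of Fgfr1 and Lifr, which encode receptors for FGF and LIF, scored 128.37, 113.34 and 92.47, and a site 73.9 kb upstream of Smad7, an inhibitor of TGF-β signalling, scored 92.59. Of these 5 sites only the one near Smad7 held an E-Box.

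Of 34 cell cycle genes 4 were nearest to a member: Ccnd1 with 2 sites, Ccne1, Cdt1 and Cdkn1b. The site 2509 bp upstream of Cdt1, a factor that licenses replication origins, scored 131.69 for Bio-Myc and 591.44 for Max. The site near Cdkn1b, the gene of the inhibitor p27, scored 87.16 and 178.72 and had no E-Box. Of 13 genes of the Myc-Max network 2 were nearest to a member, Mga and Mxi1, another partner of Max, whose intronic site scored 118.63 and held no E-Box. Of 18 genes of the p53 pathway and apoptosis 3 were, Zmat3, Sesn2 and Mcl1, with Bio-Myc scores of 135.83, 86.77 and 86.46. Ribosome and translation genes had 2 of 29, Eef1a1 and Ubtf, a factor of ribosomal RNA genes with a site that scored 93.19. Metabolism had 1 of 36, the glucose transporter gene Slc2a3 with a score of 101.24, and Polycomb 1 of 31, Cbx7.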

How the data were processed

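Bio-Myc and Max were measured by ChIP-Seq in mouse ESCs, with 1 library each. Reads were aligned by the authors to mm9 (Bowtie 0.12.7, only uniquely placed reads), duplicates were merged, and MACS 1.4.1 called the peaks over the mock or IgG ChIP at a limit of 1e-08; the submitters' processing notes also name CASAVA 1.8. In the deposited lists a peak has a position and a score, 10 times the negative log10 of the p-value. The control libraries entered only through these calls. Most repeated sequence is lost to unique mapping, and with a fixed limit a deeper library yields more peaks. The lists hold no read numbers.

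Peaks counted as shared from 1 bp in common, and a member with 2 Max peaks was given the score of the one it overlapped most. TSSs were those of GENCODE M1, on the same assembly (86807 positions on the autosomes and chromosome X). Motifs were counted in 500-bp windows at the peak centre and in windows 10 kb to either side that overlap no peak of either list and no promoter. Shares have 95% Wilson intervals. The 6 comparisons of sequence used Fisher's exact test, two-sided, with Benjamini-Hochberg adjustment, and regions, not cultures, were counted. Copies elsewhere in mm9 were found with blastn 2.17.0 at 80% identity over 80% of the window; they take the place of a planned count of repeat-masked sequence, since the genome used here marks no repeats. Python 3.11.15, numpy 2.4.6, scipy 1.17.1, pysam 0.24.0, matplotlib 3.10.9 and samtools 1.23.1 were used. Overlap, window and motif counts were tested on simulated peaks whose answers were known, and all 13 steps gave those answers.

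The members, the motifs and the gene lists were chosen with earlier results of these data known. The sites named are the 10 with the highest Bio-Myc score, the 10 with the highest Max score, the 5 with the most E-Boxes (16 sites tied at 3, of which the 3 with the highest Bio-Myc scores were taken), groups of 3 or more, those nearest to a gene of the lists (up to 6 per list) and those at the limits of the rule. Of these, 1 site is not reported here by name. The sites whose sequence is printed, and the second site near Ccnd1, were picked after their values were seen. Alternatives were stricter p-value limits, another overlap rule, other promoter windows and TSSs, leaving out chromosome 8 or X, other windows and flanking regions, CACGCG as a second E-Box, and other CpG limits. Comparisons within CpG classes, without copies and at a Max score of at least 150 were added after seeing the data.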

Additional observations from a re-analysis of the deposited data

How the results depend on the processing

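The number of distal shared sites was 493, and it was 149 when Bio-Myc peaks were limited to 1e-15 or lower and 299 when Max peaks were. Under the other 5 alternatives it stayed within 1.5 times of the reported count. It ran from 333, with a promoter window of 5 kb, to 557, with TSSs of coding genes only. The higher E-Box share of members than of promoter sites with Max, 11.2 points, kept its direction and its side of the threshold under 10 of 13 alternatives. It was -5.15 points with CACGCG counted beside CACGTG, 7.12 points in windows that were not CpG-island-like and 4.66 points in CpG-island-like windows, and the cause was not tested. The other comparisons kept both under every alternative run. The E-Box difference was 25.9 to 51.9 points against flanking regions (13 alternatives). It was 11.9 to 24.5 points against distal sites without Max (14 alternatives, highest p = 0.0164 by Fisher's exact test, not adjusted). Between Max peaks it was 11.9 to 23.7 points (12 alternatives, of which 2 make the same cut on the Max score). The CpG-island-like difference was 19.03 to 32.4 points against distal sites without Max (11 alternatives) and -61.1 to -49.9 points against promoter sites (10 alternatives). No paired analysis was possible because each ChIP is 1 library. With no read counts in the lists, a site without a Max peak may hold Max below the limit of detection. Bio-Myc was mapped in a clone with added tagged Myc, and Max in parental wild type cells. The part of this difference in the overlap was not tested.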
